A study of Rattus norvegicus with 28 samples.

Results

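Sectm1b, a gene of the secreted and transmembrane family, was followed through endothelial cells taken from transplanted rat hearts. It was 1 gene of the 14217 measured, found as the probe set 1376976_at, the 1 probe set that the array annotation gave to the single symbol Sectm1b (Entrez Gene 287884). It was chosen from earlier results on these same arrays, as the 1 gene whose change on day 4 differed between graft types, so its own values are described here without a test. Its signal rose from day to day in grafts between mismatched strains, and stayed between 6.33 and 6.74 log2 units in grafts within a strain, where normal hearts read 6.36 to 6.64.

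The study enriched endothelial cells from the hearts of male rats and measured them on 24 Affymetrix arrays, in 8 groups of 3. Allografts were hearts of DA (Dark Agouti) rats placed in Lewis recipients, and isografts were Lewis hearts placed in Lewis recipients, each harvested on day 2, 3 or 4. Normal, non-transplanted DA hearts and normal Lewis hearts were the controls, and 4 further arrays held leukocytes enriched from allografts, 1 from day 2, 2 from day 3 and 1 from day 4. Grafts were placed in the recipient's neck by a cuff technique. All endothelial samples went through depletion with a CD45 antibody and then enrichment with a CD31 antibody on magnetic beads. No drug, transgene or allele was named for any group. The 3 samples of a group were described as biological replicates, but whether each was a single animal was not given. The p-values therefore measure only the spread between these samples. Every allograft heart was DA and every isograft heart was Lewis, so the mismatch and the donor strain cannot be told apart beyond what the normal hearts of each strain show.

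Sectm1 proteins are made by epithelial, myeloid and other cells and lie at the cell surface or are secreted. Their known receptor is CD7, carried by T cells and natural killer cells, through which they can costimulate T cells. SECTM1 is known as an interferon-gamma-induced gene in human cells. Interferon gamma, the product of activated T cells and natural killer cells, acts through its receptor and the kinases Jak1 and Jak2, and in the endothelium of rejecting grafts induces antigen presentation, chemokines and Ido1.

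Markers of endothelium were high in every endothelial group. The signal of Pecam1, which encodes CD31, ran from 10.99 to 12.35 log2 units over the 24 endothelial arrays and from 8.68 to 10.39 over the leukocyte arrays as deposited. Ptprc, which encodes CD45, ran from 5.29 to 5.68 in normal hearts, from 5.93 to 8.21 in isografts, from 7.80 to 9.50 in allografts and from 12.36 to 12.69 in the leukocytes. Leukocyte transcripts were thus present in the graft endothelial samples, and Ptprc reached its highest values in allografts, with some overlap with isografts. From day 2 to day 4 the pan-leukocyte mean was 7.79, 8.13 and 8.25 in isografts and 8.61, 8.58 and 8.97 in allografts. The mean of 9 neutrophil genes was 5.96, 6.13 and 6.04 in isografts and 6.46, 5.67 and 5.77 in allografts. Its level was thus higher in allografts on day 2 and in isografts on days 3 and 4. Normal hearts differed too, with 5.07 in DA and 5.53 in Lewis. The median allograft change minus isograft change of these genes was 0.77, 0.06 and 0.11. In such bulk samples fewer cells of a type and less RNA per cell cannot be told apart. Array signals carry no counting depth, so the number of arrays limits the precision. Median signals over genes were 6.51 to 6.59 on the endothelial arrays and 6.83 to 6.88 on the leukocyte arrays, and where both are set side by side the leukocyte values were lowered by the 0.36 between the 2 sets.

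In normal DA hearts the log2 signal of Sectm1b was 6.36, 6.42 and 6.43 on the 3 arrays (mean 6.40 ± 0.04, SD, n = 3). On allograft day 2 it was 7.22, 7.23 and 6.67 (7.04 ± 0.32, SD, n = 3), and on day 3 it was 8.0, 8.33 and 8.79 (8.37 ± 0.40, SD, n = 3). On allograft day 4 it was 8.99, 9.64 and 10.56 (9.73 ± 0.79, SD, n = 3). The ranges of the 4 DA groups did not overlap: every allograft array lay above every normal DA array, every day 3 array above every day 2 array, and every day 4 array above every day 3 array.

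In normal Lewis hearts Sectm1b read 6.46, 6.64 and 6.56 (6.55 ± 0.09, SD, n = 3). On isograft day 2 it read 6.43, 6.49 and 6.64 (6.52 ± 0.11, SD, n = 3), on day 3 it read 6.67, 6.74 and 6.74 (6.72 ± 0.04, SD, n = 3), and on day 4 it read 6.62, 6.63 and 6.33 (6.53 ± 0.17, SD, n = 3). The day 2 and day 4 isografts overlapped the normal Lewis hearts, and the day 3 isografts lay 0.03 above them. All 12 arrays of Lewis hearts fell between 6.33 and 6.74.

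**Figure D1:**
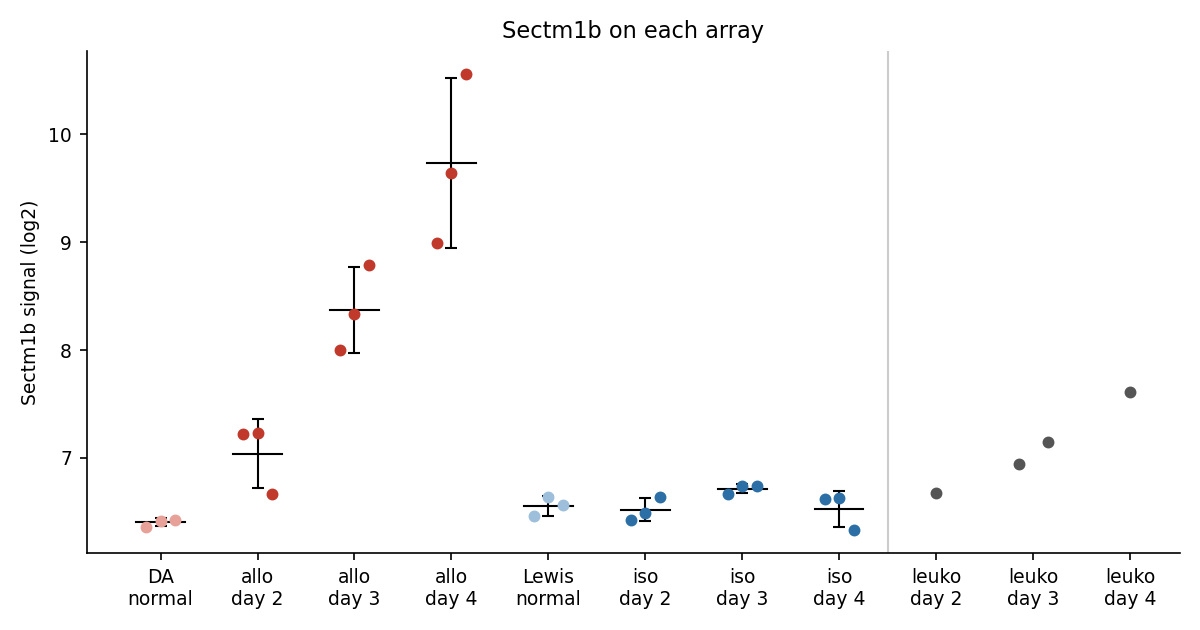
Log2 signal of Sectm1b (vertical axis) on each array, one point per array, for the 8 endothelial groups and the leukocytes; horizontal lines are group means and bars the SD of 3 arrays, and leukocyte points are lowered by 0.36. Allografts climb from 7.04 on day 2 to 9.73 on day 4, while all isograft arrays stay at or under 6.74.

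In order of their means, the groups ran from normal DA hearts over isograft day 2, isograft day 4, normal Lewis hearts, isograft day 3, allograft day 2 and allograft day 3 to allograft day 4. Among neighbours in that order, isograft days 2 and 4 overlapped, as did isograft day 4 and normal Lewis hearts, and isograft day 3 and allograft day 2. Normal DA hearts and isograft day 2 met at 6.43. The clear steps were the last ones, where allograft day 3 lay 0.77 above day 2 and allograft day 4 lay 0.20 above day 3, measured between the nearest arrays.

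Against normal DA hearts the allograft means of Sectm1b were higher by 0.64 on day 2, 1.97 on day 3 and 3.33 on day 4 on the log2 scale, which are 1.56-fold, 3.93-fold and 10.05-fold. The standard error was 0.26 on each day in the fit that shares 1 spread over the 8 groups. Computed from its own 2 groups alone it was 0.19, 0.23 and 0.46, since the day 4 arrays were the most spread. Against normal Lewis hearts the isograft means differed by -0.04, 0.16 and -0.03, with standard errors of 0.26 in the shared fit and of 0.08, 0.06 and 0.11 from their own groups. Normal DA hearts lay 0.15 below normal Lewis hearts in Sectm1b (difference -0.15, SE 0.26). Within allografts the day 4 mean exceeded that of day 2 by 2.69, and within isografts by 0.01.

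The allograft change minus the isograft change of Sectm1b was 0.68 on day 2, 1.81 on day 3 and 3.35 on day 4. Its standard error was 0.37 in the shared fit and 0.20, 0.24 and 0.47 from its own groups. This is the contrast by which the gene was chosen: on day 4 it was the 1 of 14217 genes (0.00703%) with a limma adjusted p under 0.05 (Benjamini-Hochberg). Its day 4 difference was 9.13 times the standard error of the shared fit. That ratio belongs to the choice and is no independent test. No gene passed on day 2 or day 3 in the same limma fit, in which 480 and 334 genes had an unadjusted p under 0.05. Both counts are smaller than a share of 0.05 of the 14217 genes, the share expected with no difference. Ordered by the day 4 adjusted p, the genes just outside the threshold were Ido1, with a difference of 5.59 and a ratio to its standard error of 5.41, then Pygl with 1.56, Prxl2a with 1.70 and Wars1 with 2.24. By size alone, Sectm1b had rank 4 on day 4, behind Ido1, Cxcl11 (4.03) and Batf2 (3.46), and rank 11 on day 3. These 3 genes varied more between arrays than Sectm1b, with standard errors of 1.03, 0.98 and 0.75.

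**Figure D2:**
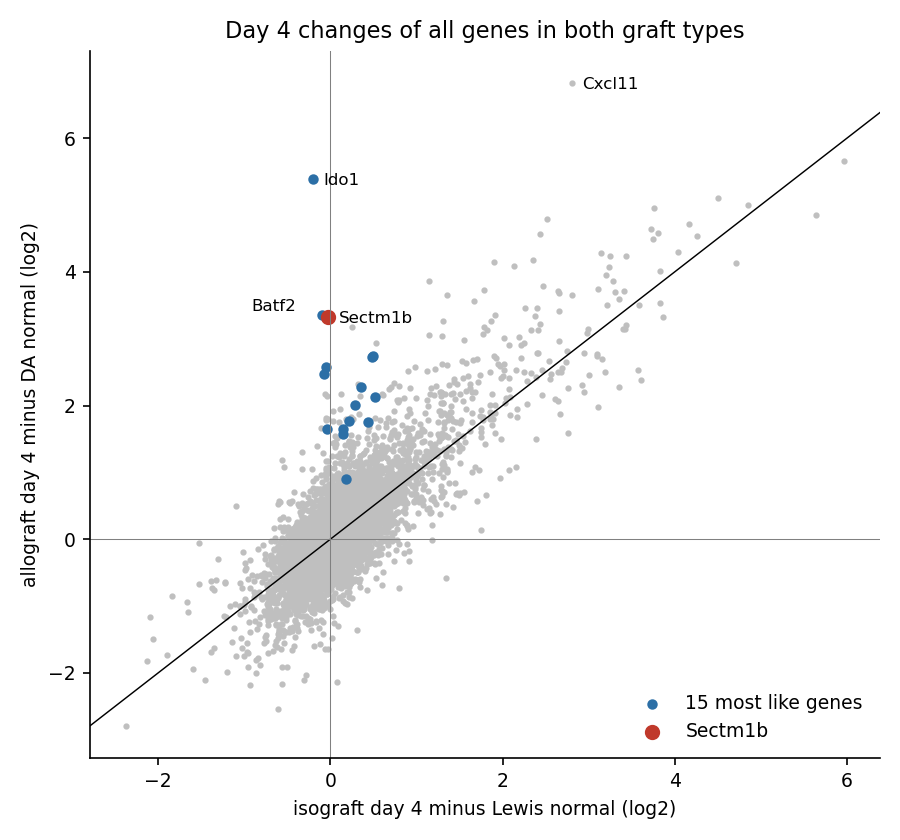
Change on day 4 in isografts against normal Lewis hearts (horizontal axis, log2) and in allografts against normal DA hearts (vertical axis, log2), one point per gene, with Sectm1b in red, its 15 most like genes in blue and the line of equal change. Sectm1b sits at -0.03 and 3.33, beside Batf2 and below Ido1.

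On day 4 all 3 allograft arrays of Sectm1b lay above all 3 isograft arrays, as they did on days 2 and 3. Of all genes, 5.79% did so on day 2, 7.68% on day 3 and 6.21% on day 4, and nothing is read from it for Sectm1b, which was chosen for this. On day 2 the margin was small, since the lowest allograft array read 6.67 and the highest isograft array 6.64.

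In the leukocytes enriched from allografts, Sectm1b read 7.04 on day 2, 7.30 and 7.51 on day 3 and 7.97 on day 4 as deposited. Lowered by 0.36 these were 6.68, 6.94, 7.15 and 7.61, each below the mean of the allograft endothelium of its day. The leukocyte value minus the endothelial mean was -0.36 on day 2, -1.33 on day 3 and -2.12 on day 4. On days 3 and 4 every leukocyte array lay below every endothelial array of that day. On day 2 the single leukocyte array lay between the endothelial arrays of 6.67 and 7.22, and without the shift that day's difference was 0.00. No test between leukocytes and endothelium was made: leukocytes had 1 or 2 arrays a day and their arrays had other medians. Markers were compared with the days pooled, all 9 allograft arrays against all 4 leukocyte arrays. Each of the 14 T cell genes and 15 macrophage genes measured was at least 2-fold higher in the leukocytes with no overlap. Of all genes, 8.33% were. Each of the 16 endothelial genes measured was at least 2-fold higher in the endothelium, where 9.04% of all genes were. Their mean was still 8.29 on the leukocyte array of day 2, 9.36 and 10.06 on those of day 3 and 8.50 on that of day 4, after the shift. In allograft endothelium it was 11.86, 11.90 and 11.79 on the 3 days. How much endothelial RNA added to the leukocyte values of Sectm1b was not tested.

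**Figure D3:**
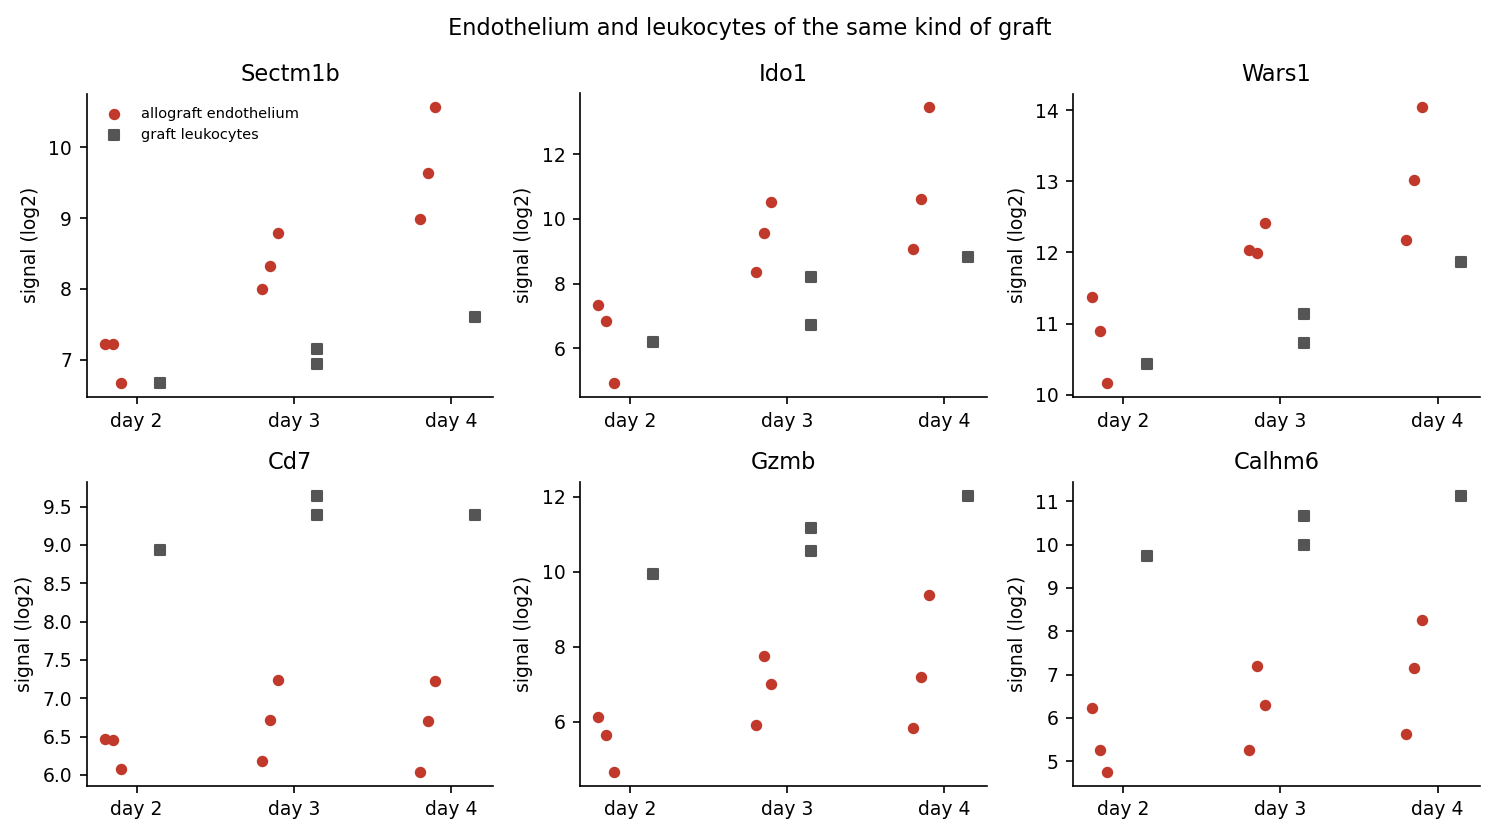
Log2 signal (vertical axes, each on its own scale) of 6 genes in allograft endothelium (red circles, 3 arrays a day) and in graft leukocytes (grey squares, lowered by 0.36) by day. Sectm1b, Ido1 and Wars1 lie higher in endothelium on days 3 and 4, while Cd7, Gzmb and Calhm6 lie far higher in leukocytes on every day.

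Cd7, the receptor's gene, was a leukocyte transcript here, with a lowest value of 9.29 and a median of 9.75 over the 4 leukocyte arrays as deposited, against 5.87 to 6.46 in normal and isograft endothelium. On allograft day 4 it read 6.04, 6.70 and 7.22 in the endothelial samples, in the same order over the arrays as Sectm1b. Its day 4 change in allografts was 0.53, which did not pass (limma adjusted p = 0.202), and its difference between graft types was 0.49 (limma adjusted p = 1). Cd7 is also the next gene to Sectm1b on the chromosome in the RefSeq gene order. Its correlation with Sectm1b over the 24 arrays was 0.73.

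Ifng, the gene of interferon gamma itself, read 7.39 to 9.22 in the leukocytes as deposited and 3.80 to 4.47 in normal and isograft endothelium. In allograft endothelium on day 4 it read 4.28, 4.47 and 5.56, highest on the array where Sectm1b was highest, and its change of 0.79 did not pass (limma adjusted p = 0.0943).

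The genes most like Sectm1b were taken as the 15 with the highest Pearson correlation of log2 signal over the 24 endothelial arrays. The genes share the same arrays and the same steep allograft days, so these correlations are a description. The median over all genes was -0.02, 15 genes exceeded 0.9 and 124 exceeded 0.8. In order they were Ido1 (0.98), Wars1 (0.97), Il18bp (0.96), Batf2 (0.95), Tap1 (0.94), Fcgr3a, Prxl2a, Gbp2 (each 0.92), Calhm6, Rmdn3, Pfkfb3, Apol3-ps1, Igtp, Gzmb (each 0.91) and Psmb10 (0.90). Of these, 7 stand in a list of 18 known interferon-gamma-induced genes, of which 17 were measured among the 14217 genes. That list was set with earlier results of these data known, so the 7 is a description and no independent support. The likeness leaned on the highest arrays: without the 2 arrays farthest from the median of Sectm1b, replicates 3 and 2 of allograft day 4, the correlation was 0.95 for Ido1, 0.93 for Wars1 and 0.78 for Psmb10. Over the 12 arrays of Lewis hearts, where Sectm1b spanned 6.33 to 6.74, that of Ido1 was 0.36. By rank correlation only 2 of the 15, and over the 12 arrays of DA hearts 6, stayed among the first 15.

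Ido1 encodes indoleamine 2,3-dioxygenase, which degrades tryptophan. It read 5.41, 5.74 and 5.83 in normal DA hearts, 7.34, 6.84 and 4.92 on allograft day 2, and 8.37, 9.57 and 10.52 on day 3. On allograft day 4 it read 9.08, 10.62 and 13.45. No isograft array of Ido1 exceeded 5.51. As with Sectm1b, replicate 3 was the lowest array of allograft day 2 and the highest of days 3 and 4.

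Wars1, the tryptophanyl-tRNA synthetase that charges tRNA with the amino acid Ido1 removes, read 10.47, 10.38 and 10.17 in normal DA hearts and 12.17, 13.02 and 14.04 on allograft day 4. On isograft day 4 it read 10.72, 10.12 and 10.22, against 10.01, 9.81 and 9.73 in normal Lewis hearts. Its allograft changes were 0.47, 1.81 and 2.74 from day 2 to day 4, and its isograft changes 0.29, 0.47 and 0.50.

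Il18bp, a secreted inhibitor of interleukin-18, read 8.73, 9.03 and 9.36 in normal DA hearts and 10.08, 11.36 and 12.53 on allograft day 4. Batf2, a basic leucine zipper factor, read 5.87, 5.85 and 5.92 in normal DA hearts and 7.28, 9.40 and 11.03 on allograft day 4, with no isograft array above 5.99. Both followed Sectm1b over the day 4 arrays, with replicate 1 lowest and replicate 3 highest.

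Tap1, a subunit of the peptide transporter for MHC class I, had allograft changes of -0.21, 0.77 and 1.75 over the 3 days. Psmb10, a catalytic subunit of the immunoproteasome, had -0.30, 0.53 and 0.90, and the GTPases Gbp2 and Igtp had -0.16, 1.29 and 2.12, and -0.55, 0.96 and 1.76. On day 2 these 4 genes differed from Sectm1b in sign: their means lay below those of normal DA hearts, while that of Sectm1b lay 0.64 above.

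Among the others, Fcgr3a encodes a low-affinity receptor for IgG, Gzmb the cytotoxic protease granzyme B, Calhm6 a calcium homeostasis modulator, Pfkfb3 a regulator of glycolysis and Apol3-ps1 is annotated as an apolipoprotein L pseudogene. Their day 4 changes in allografts were 2.73, 2.47, 2.58, 2.00 and 1.64. Prxl2a, a peroxiredoxin-like gene, and Rmdn3, a mitochondrial outer membrane gene, had 1.65 and 1.57. Of the 15, Fcgr3a, Calhm6, Apol3-ps1 and Gzmb were at least 2-fold higher in the leukocytes than in allograft endothelium with no overlap. This rule pooled the days, with all 9 allograft arrays set against all 4 leukocyte arrays. For the other 11, as for Sectm1b, neither kind of sample was 2-fold higher without overlap in that pool. Pooling can hide a difference within a day in a gene that rises. By day, leukocytes minus endothelium for Sectm1b was -0.36, -1.33 and -2.12, without overlap on days 3 and 4.

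**Figure D4:**
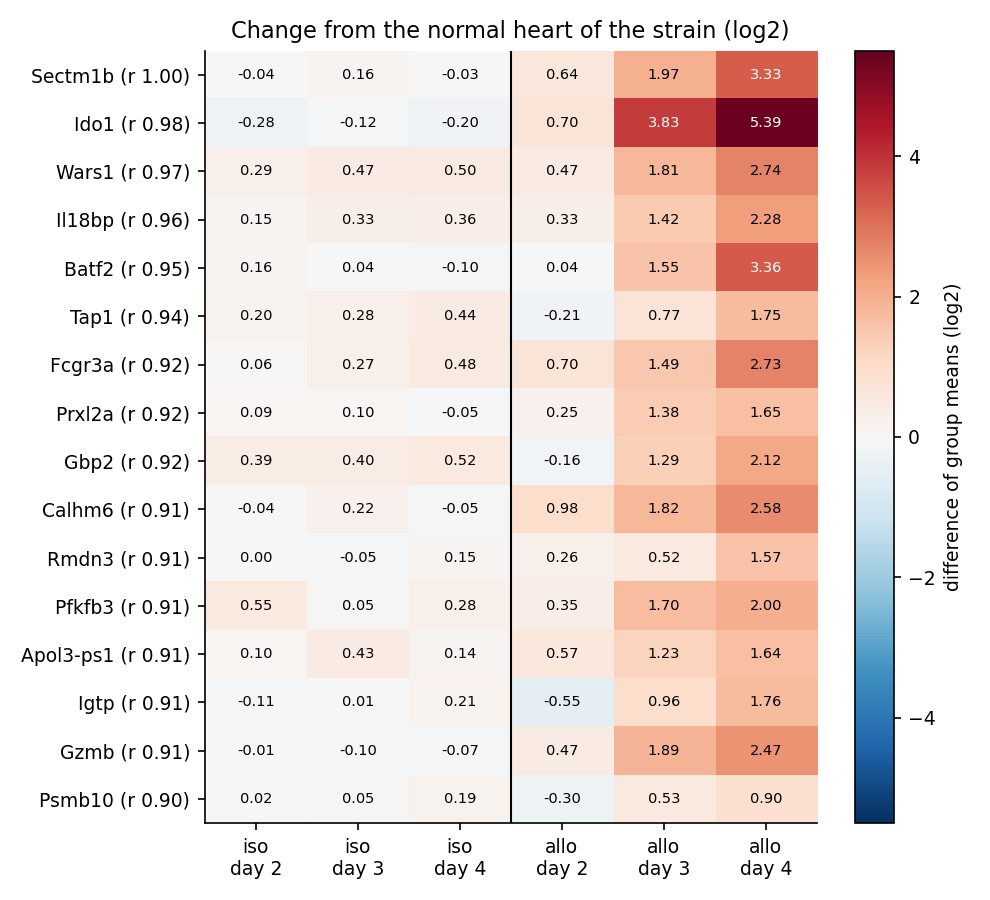
Change of Sectm1b and its 15 most like genes (rows, with the correlation r over 24 arrays) against the normal heart of the donor strain in each graft group (columns); colour and printed number are the log2 difference of group means of 3 arrays. The isograft cells run from -0.28 to 0.55, and the allograft day 4 cells from 0.90 to 5.39.

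Over the 15 genes the allograft changes ran from -0.55 to 0.98 on day 2 (median 0.33), from 0.52 to 3.83 on day 3 (median 1.42) and from 0.90 to 5.39 on day 4 (median 2.12). The isograft changes on day 4 ran from -0.20 to 0.52 (median 0.19). On day 2 the allograft arrays lay wholly above the isograft arrays for 3 of the 15, on day 3 for 14 and on day 4 for 14 (5.79%, 7.68% and 6.21% of all genes). These counts describe genes picked for following Sectm1b and are read no further.

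For these 15 genes the order of the arrays within a group was set beside that of Sectm1b. The genes were picked by correlation over these same arrays, which leaned on allograft day 4. A shared order there thus partly follows from the pick, and the share of all genes with the same order was not computed. On allograft day 4, replicate 3 was the highest array for 15 of 15 and replicate 1 the lowest for 14 of 15, as for Sectm1b. On allograft day 2, replicate 3 was the lowest for 14 of 15, as for Sectm1b, and replicate 2, the highest for Sectm1b, was highest for 3. On allograft day 3, replicate 3, the highest for Sectm1b, was highest for 7 of 15 and replicate 1 lowest for 9. With group means removed, the correlation with Sectm1b was 0.96 for Ido1, 0.92 for Il18bp, 0.87 for Gzmb, 0.86 for Psmb10 and 0.52 for Pfkfb3. On isograft day 4, replicate 2, the highest for Sectm1b, was highest for 5 of 15 and replicate 3 lowest for 9, and on isograft day 3 replicate 2 was highest for 2 and replicate 1 lowest for 6. Whether the orders were shared more in one graft type was not tested.

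**Figure D5:**
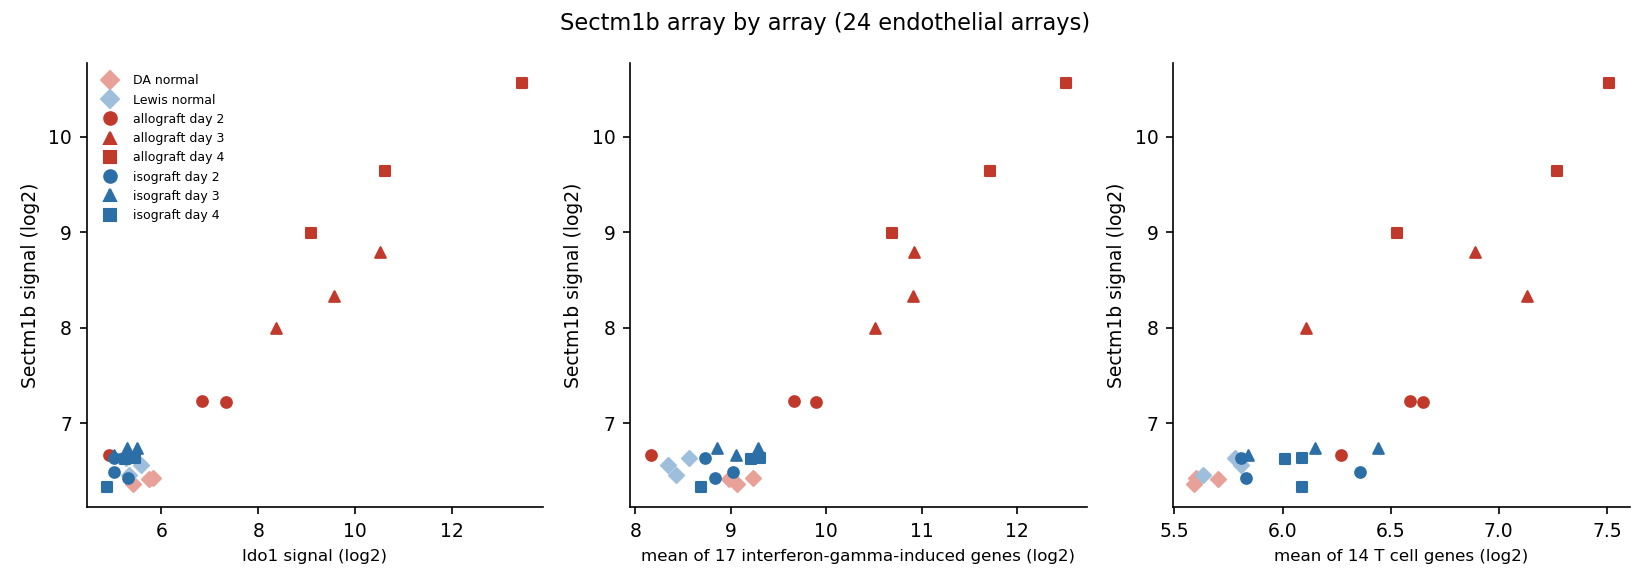
Log2 signal of Sectm1b (vertical axis) against Ido1, against the mean of 17 interferon-gamma-induced genes and against the mean of 14 T cell genes (horizontal axes, log2), one point per endothelial array with colour and shape for the group. Allograft day 4 arrays lie at the upper right in all panels, at 10.69 to 12.51 on the interferon-gamma axis and 6.53 to 7.51 on the T cell axis.

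The wider interferon-gamma-induced list rose late in allografts. Of its 17 measured genes, 1 rose and 1 fell on allograft day 2 (3.53% of all genes rose and 2.45% fell), 5 rose on day 3 (1.55% of all genes) and 15 rose on day 4 (7.19% of all genes). The median changes were -0.16, 0.96 and 1.78, against 0.03, 0.00 and 0.00 over all genes. From day 2 to day 4 within allografts, 13 of 17 rose (0.38% of all genes). Without the 7 genes named as most like Sectm1b, 8 of 10 rose on day 4 with a median of 1.77. In isografts none of the 17 passed on day 2 (1.06% of all genes rose), 2 rose on day 3 (1.8%) and 1 on day 4 (2.61%). The count of 15 ran from 12, without allograft day 4 replicate 3, to 17, without replicate 1. With the mean of either the pan-leukocyte or the T cell genes as a covariate 0 of 17 passed on day 4, when 0 and 23 of all genes passed. None of the 17 passed the test of the difference between graft types on any day, at which 0.00703% of all genes passed on day 4, and 0% on days 2 and 3.

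Cxcl11, a ligand of the T cell chemokine receptor Cxcr3, rose in both graft types, by 3.80, 5.89 and 6.83 in allografts from day 2 to day 4 (limma adjusted p = 0.00194, 4.5e-05 and 2.72e-06) and by 2.80 on isograft day 4 (limma adjusted p = 0.0271). Sectm1b differed from it in showing no isograft change of that size. Mean signal over the 17 genes was 9.89, 9.66 and 8.16 on the allograft day 2 arrays, where Sectm1b read 7.22, 7.23 and 6.67.

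Of the receptor and transducers of interferon gamma 13 were measured. Irf9 fell on allograft day 2 (2.45% of all genes fell) by 1.09 (limma adjusted p = 0.00261) and Irf8, a factor of interferon signalling also abundant in myeloid cells, rose by 1.81 on day 3, when 1.55% of all genes rose (limma adjusted p = 0.0351). On day 4, 3 of the 13 rose (7.19% of all genes): Irf8 by 3.05 (limma adjusted p = 0.000138), the kinase Jak1 by 0.60 (limma adjusted p = 0.00191) and the phosphatase Ptpn2 by 0.74 (limma adjusted p = 0.00838). In isografts only Socs3, a feedback inhibitor, passed, by 0.96 on day 3 (1.8% of all genes rose), and it was lost when any array of these groups other than normal Lewis replicate 2 was left out. The day 4 count of 3 ran from 2 to 5 with 1 array left out, 5 being without allograft day 4 replicate 1. Day 4 changes in allografts were 0.34 for the receptor chain Ifngr1, 0.03 for Ifngr2, 0.81 for Jak2, 0.51 for Stat3, -0.02 for Irf1, 0.18 for Irf2 and 0.80 for Socs1, with limma adjusted p from 0.0656 to 0.975. The 3 calls of day 4 were lost with either leukocyte covariate (0 genes), and Irf8 on day 3 also when any array other than allograft day 3 replicate 1 was left out.

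Genes of the type I interferon response took another course. Of 20 measured, 11 fell on allograft day 2 (2.45% of all genes fell), with a median of -1.29, including the antiviral Mx2 by 2.16 and the factor Irf7 by 1.76 (limma adjusted p = 0.0108 and 0.0227). On day 3 none passed and on day 4 only Parp14 rose, by 0.99 (limma adjusted p = 0.0389), a gene named after its values were seen. The day 2 count was 2 without allograft day 2 replicate 3, 6 without normal DA replicate 3, 15 without allograft day 2 replicate 1, 8 to 10 without each other array, and 0 with the pan-leukocyte mean as a covariate.

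Of 16 inflammatory genes of the NF-kB pathway, 4, 6 and 6 rose on isograft days 2, 3 and 4 (1.06%, 1.8% and 2.61% of all genes), and 7, 2 and 6 on allograft days 2, 3 and 4 (3.53%, 1.55% and 7.19%). With 1 array left out the isograft counts ran from 1 to 4, 4 to 6 and 4 to 6. The allograft day 2 count ran from 3, without normal DA replicate 2, to 5. The day 3 count was 1 without normal DA replicate 2, and the day 4 count 11 without allograft day 4 replicate 1. The isograft day 2 count was 1 without isograft day 2 replicate 2 or normal Lewis replicate 1 or 3. Sele, the endothelial adhesion molecule E-selectin, rose by 3.57 on isograft day 4 and by 2.53 on allograft day 4 (limma adjusted p = 6.31e-06 and 0.000155). Of the 16, 1 fell, Tnf, on allograft days 2 and 4 (2.45% and 4.26% of all genes fell). Its day 4 change was -1.55 (limma adjusted p = 0.0128). With 1 array left out the count of falls ran from 0 to 1 on both days. With the pan-leukocyte mean as a covariate 1 of the 16 passed on each isograft day and 0 on each allograft day. On isograft day 4, where these genes had a median change of 1.30, the change of Sectm1b was -0.03.

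Among ligands that costimulate or restrain T cells, a role shared by Sectm1 proteins, 16 of 20 were measured. On allograft day 4, 6 rose (7.19% of all genes) and 1 fell (4.26%), and on isograft day 4, 3 rose (2.61%). Tnfrsf14, a ligand of the receptor Btla, read 4.98, 5.18 and 5.30 in normal DA hearts and 5.64, 6.66 and 8.50 on allograft day 4, a rise of 1.78 (limma adjusted p = 0.00833). Cd40 rose by 1.15 (limma adjusted p = 0.0033). Icam1 had a day 4 change of 0.71 in allografts (limma adjusted p = 0.505) and 1.56 in isografts (limma adjusted p = 0.16), and Tnfsf9 rose by 1.22 in isografts (limma adjusted p = 0.0351). The count of 6 was 4 to 7 with 1 array left out and 0 with either covariate.

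Of 14 T cell genes measured, 3, 6 and 13 rose on allograft days 2, 3 and 4 (3.53%, 1.55% and 7.19% of all genes), and 1, 1 and 3 on the isograft days (1.06%, 1.8% and 2.61%). With 1 array left out the isograft counts ran from 0 to 1, 0 to 1 and 1 to 4. Mean signal of the T cell genes was 6.53, 7.27 and 7.51 on the allograft day 4 arrays, in the order of Sectm1b. On day 3 it was 6.11, 7.13 and 6.89, highest on replicate 2, where Sectm1b was highest on replicate 3. The day 3 value of 6.11 lay below every day 2 array (6.27 to 6.65), while Sectm1b on that array lay above every day 2 array. The T cell mean was 5.59 to 5.70 in normal DA hearts, and 9.16 to 9.66 in the leukocytes after the shift. Of 11 cytotoxic lymphocyte genes, 0, 2 and 5 rose on the allograft days (3.53%, 1.55% and 7.19% of all genes) and 0 on each isograft day (1.06%, 1.8% and 2.61%). The count of 2 on allograft day 3 was 5 without allograft day 3 replicate 1 and 0 or 1 without each other array. On day 4 the T cell count was 9 without replicate 3, and the cytotoxic count 1 without replicate 3 and 2 without replicate 2 or any 1 normal DA array. On day 3 the T cell count was 9 without allograft replicate 1 and 2 or 3 without each other array. Their part in the level of Sectm1b was not tested beyond a fit with the T cell mean as a covariate, added after the data were seen. In that fit the allograft change of Sectm1b minus its isograft change was 0.22, 1.31 and 2.50 on days 2, 3 and 4, and its allograft changes were -0.01, 1.17 and 2.23.

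Macrophage transcripts rose in both graft types and did not order the allograft day 4 arrays as Sectm1b did. Of 15 macrophage genes, 15, 13 and 15 rose on the allograft days (3.53%, 1.55% and 7.19% of all genes) and 6, 13 and 14 on the isograft days (1.06%, 1.8% and 2.61%). The isograft count was 3 on day 2 without its replicate 2, and 8 on day 3 without its replicate 2. Their mean signal was 9.33, 9.66 and 9.30 on the allograft day 4 arrays and 9.38, 8.69 and 9.54 on those of isograft day 4, where Sectm1b read 6.62, 6.63 and 6.33. Of 15 pan-leukocyte genes, 10, 10 and 12 rose in allografts and 1, 4 and 5 in isografts, beside the same shares of all genes. With 1 array left out the isograft counts ran from 0 to 1, from 1, without isograft day 3 replicate 2, to 6, and from 3 to 5. With the pan-leukocyte mean as a covariate the difference of Sectm1b between graft types was 0.52, 1.71 and 3.21. Of 16 endothelial genes, 4 fell on allograft day 4 (4.26% of all genes) and none passed in isografts; the count of 4 was 1 or 2 without any 1 array other than allograft day 4 replicate 1.

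Genes beside Sectm1b on the chromosome were read on allograft day 4, when 7.19% of all genes rose. Of its 8 nearest neighbours on the Cd7 side, all measured, 1 rose, the lactate transporter gene Slc16a3, by 1.62 (limma adjusted p = 0.000675). On the other side the nearest gene is its paralog Sectm1a, which no single-gene probe set measured, and of the 8 nearest on that side 6 were measured and none passed. The highest correlations with Sectm1b among the neighbours were 0.75 for Cybc1 and 0.73 for Cd7.

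The promoter windows of Sectm1b, of Sectm1a and of 3 of the most like genes are shown so that their letters can be set beside the shared course. Each runs from 250 bases before to 50 bases after the RefSeq start in the GRCr8 assembly, 5′ to 3′ on the gene's strand. Capitals mark a gamma-activated sequence (GAS, TTCNNNGAA) or an interferon-stimulated response element (ISRE, here GAAA, any 2 bases and GAAA again), searched on both strands. The Sectm1b window is chr10:106832055-106832354 and that of Sectm1a chr10:106846885-106847184, both on the minus strand. Those of Batf2 (chr1:212897096-212897395) and Igtp (chr10:42874797-42875096) are on the plus strand, and that of Psmb10 (chr19:50743243-50743542) is on the minus strand.
Sectm1b: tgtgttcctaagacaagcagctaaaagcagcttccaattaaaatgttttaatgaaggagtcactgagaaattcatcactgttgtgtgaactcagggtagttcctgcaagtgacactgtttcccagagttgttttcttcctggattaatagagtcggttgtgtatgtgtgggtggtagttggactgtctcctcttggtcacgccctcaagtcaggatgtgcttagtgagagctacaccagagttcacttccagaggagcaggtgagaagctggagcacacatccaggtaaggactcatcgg
Sectm1a: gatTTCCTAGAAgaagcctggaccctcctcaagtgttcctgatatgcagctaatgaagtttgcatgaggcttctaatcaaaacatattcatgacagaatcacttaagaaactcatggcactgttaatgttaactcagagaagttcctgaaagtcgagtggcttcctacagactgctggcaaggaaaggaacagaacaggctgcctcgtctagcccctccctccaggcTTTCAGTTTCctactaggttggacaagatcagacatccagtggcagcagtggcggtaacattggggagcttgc
Batf2: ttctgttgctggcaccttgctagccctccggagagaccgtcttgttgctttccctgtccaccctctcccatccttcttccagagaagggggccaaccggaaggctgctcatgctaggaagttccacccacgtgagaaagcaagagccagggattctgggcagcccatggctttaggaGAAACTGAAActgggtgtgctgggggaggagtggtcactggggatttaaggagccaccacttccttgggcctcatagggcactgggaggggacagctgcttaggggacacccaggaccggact
Igtp: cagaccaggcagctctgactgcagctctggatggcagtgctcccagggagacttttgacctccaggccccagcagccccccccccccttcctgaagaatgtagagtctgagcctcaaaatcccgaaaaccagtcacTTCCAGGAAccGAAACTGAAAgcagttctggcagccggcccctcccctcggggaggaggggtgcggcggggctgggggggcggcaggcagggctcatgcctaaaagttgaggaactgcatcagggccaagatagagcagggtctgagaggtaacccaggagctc
Psmb10: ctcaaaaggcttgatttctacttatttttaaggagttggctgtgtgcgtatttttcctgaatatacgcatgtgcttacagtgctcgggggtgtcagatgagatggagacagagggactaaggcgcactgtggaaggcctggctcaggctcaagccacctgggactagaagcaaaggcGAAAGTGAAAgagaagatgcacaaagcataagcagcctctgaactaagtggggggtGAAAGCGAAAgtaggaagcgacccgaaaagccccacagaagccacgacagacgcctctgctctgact

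The Sectm1b window held none of the 3 motifs searched, GAS, ISRE and the NF-kB form GGGANTTCC, which says only that these letters are not in this window. The Sectm1a window held a GAS at -247 and an ISRE at -23 from the start. Igtp held a GAS at -114 and an ISRE at -103, which do not overlap, Batf2 an ISRE at -73, and Psmb10 ISREs at -73 and -17. Of the 15 most like genes, 12 had a window in the table: 8 of these held an ISRE, 2 a GAS and 0 the NF-kB form, and 9 held a GAS or an ISRE. The ones shown, Batf2, Igtp and Psmb10, all held an ISRE. The windows of Wars1, Rmdn3 and Pfkfb3, not shown, held none of the 3 motifs. Of all 27457 windows of this length, 3.77% held an ISRE, 8.68% a GAS and 1.73% the NF-kB form. A match is a description of letters, not of a bound site.

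At the other end of the order, the 5 genes with the lowest correlation were Rab3d (-0.87), Mtss1 and Amot (each -0.86), Pnkd (-0.84) and Fnip2 (-0.83). Rab3d, a small GTPase of secretory vesicles, read 9.78, 9.95 and 9.70 in normal DA hearts and 9.38, 9.43 and 8.64 on allograft day 4. Mtss1, an actin-binding gene, read 10.99, 10.93 and 11.01 and then 10.52, 10.25 and 9.37. The array with the highest Sectm1b had the lowest signal of both. The day 4 changes in allografts were -0.66 for Rab3d, -0.93 for Mtss1, -0.69 for Amot, -2.11 for Pnkd and -0.64 for Fnip2, and in isografts -0.17, -0.09, -0.25, -0.31 and -0.06.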

How the data were processed

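Total RNA of enriched heart endothelium (24 samples) and graft leukocytes (4 samples) was hybridised to Affymetrix arrays. The authors deposited log2 signals per probe set, made with RMA in the affy package per the submitters' processing notes. The values were used as deposited. Of 31099 probe sets, 57 controls, 436 with several genes and 9780 not listed in the annotation were left out. The other 20826 gave 14217 genes, with the probe set of highest mean kept for each gene. Of them 20758 matched RefSeq (GRCr8).

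limma 3.58.1 (lmFit, eBayes) in R 4.3.3 was fitted on 24 endothelial arrays with 8 group means and 16 residual degrees of freedom. The adjusted p (Benjamini-Hochberg) ran over 14217 genes with a threshold of 0.05, and the fit was tested on simulated data. The 4 leukocyte arrays stayed outside this fit. Tables were made with Python 3.11.15. The allograft days share their normal DA hearts, and the isograft days their normal Lewis hearts.

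Sectm1b and the gene lists were chosen with earlier results of these data known. Genes were named by this rule: the 15 most and 5 least correlated genes, all measured interferon-gamma transducers and Sectm1 receptors, and up to 4 genes of each other list with the largest difference of changes on day 4. Neighbouring genes, the genes next to the threshold, and a few called list members were named outside it, after their values were seen. Replicate numbers were not taken to pair the samples, since not every same-number correlation of deviations was over 0.1: they ran from -0.242 to 0.363 in allografts and from -0.157 to 0.476 in isografts, where those of number 1 were 0.219 to 0.476. Alternatives were other probe set rules, filters, priors, weights, a block, covariates and left-out arrays.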

Additional observations from a re-analysis of the deposited data

Results flagged for a closer look

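For 6 genes of the lists, every array of one graft type moved one way against the normal hearts of its strain while every array of the other moved the opposite way. Only named genes were scanned, many of them picked for a large day 4 difference or for following Sectm1b. The share of all genes that meet this rule was not computed. The difference was not tested beyond the limma fit in the report, where none of the 6 passed. Values are the allograft change minus the isograft change, in log2 units. Among genes of cytotoxic lymphocytes, Gzmb differed by 1.99 on day 3 and 2.55 on day 4, and Nkg7 by 1.55 on day 3 and 1.62 on day 4, both higher in allografts. The receptor chain Ifngr1 differed by 0.44 on day 2, higher in allografts. The leukocyte gene Cytip differed by 0.61 on day 2, and the neutrophil receptor gene Cxcr2 by 0.77 on day 2 and 0.39 on day 4, both higher in allografts. The endothelial receptor gene Tie1 differed by -0.57 on day 4, lower in allografts. The isograft changes themselves were often small: -0.10 and -0.07 for Gzmb, -0.14 for Ifngr1, -0.07 for Cytip and 0.17 for Tie1. Those of Nkg7 were -0.39 and -0.54, and those of Cxcr2 -0.20 and -0.29, on the same days as above.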

How the results depend on the processing

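Values given for Sectm1b were compared with the spread of replicates, and counts of called genes with a factor of 1.5. Over the alternatives run, 282 stayed within these limits and 62 moved. Many of these checks could not move. Leaving out 1 of 3 arrays shifts a group mean by less than its SD, whatever the values. Sectm1b had 1 probe set, so averaging probe sets left it as it was, and the replicate block gave it the same differences. The 282 is thus no measure of robustness. Small changes of Sectm1b did not all keep their sign. With the T cell mean as covariate its allograft change on day 2 went from 0.64 to -0.01, and its isograft change on day 3 from 0.16 to -0.14. With 1 array left out its isograft change ran from -0.10 to 0.01 on day 2 and from -0.08 to 0.07 on day 4. The difference between graft types kept its sign. Leaving out 1 array in turn moved the Sectm1b difference between graft types from 0.58 to 0.86 on day 2, from 1.60 to 2.00 on day 3 and from 2.94 to 3.73 on day 4, the lowest day 4 value being that without allograft day 4 replicate 3. The 15 most like genes kept 10 to 15 of their number when 1 array was left out, 2 by rank correlation, 7 over group means, 5 over deviations and 6 over arrays of DA hearts.

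With the T cell mean as covariate, the isograft changes of Sectm1b were -0.23, -0.14 and -0.27, the allograft changes -0.01, 1.17 and 2.23 and their differences 0.22, 1.31 and 2.50. With the pan-leukocyte mean, the isograft changes were 0.02 on day 3 and -0.19 on day 4, and the allograft change 0.39 on day 2. Without the shift, leukocytes minus endothelium on day 2 was 0.00. The cause of these moves was not tested.

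Counts of called genes moved more. With array weights they were 408, 1308 and 825 for isograft days 2, 3 and 4, 2193, 762 and 3003 for allograft days, and 4, 1 and 6 for the difference between graft types. With the pan-leukocyte mean as covariate they were 69, 45 and 38 for isografts and 7, 0 and 0 for allografts, and with the T cell mean 210 for isograft day 3 and 224, 22 and 23 for allografts. With 1 array left out they ran from 92 to 176, 150 to 300 and 246 to 391 for isografts, from 421 to 833, 168 to 322 and 862 to 2606 for allografts, and from 1 to 81 for the day 4 difference, 81 being without allograft day 4 replicate 1. With the replicate number as a block 2 genes passed the day 4 difference and that of Sectm1b was 3.35. The numbers were not taken to pair the samples. The block also moved list counts: T cell genes on allograft day 2 to 5, costimulatory genes to 3 on allograft day 2 and to 2, 4 and 5 on the isograft days, and type I genes on allograft day 4 to 0. Sectm1b had 1 probe set, so no other could be tried. The limit is 3 arrays a group.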
